A study of Mus musculus with 18 samples.

Results

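Medial frontal cortex was compared with orbital frontal cortex in newborn control mice. Of the 18 RNA-seq libraries of the series, 6 were used for this comparison: the 3 control libraries labelled Medial and the 3 control libraries labelled Orbital, chosen by these labels alone, with every gene that had enough reads for a test (18730 genes of 54532 in the count table). The series as a whole covered 3 microdissected regions, labelled Medial, Orbital and Dorsal, of the frontal cortex at postnatal day 0 (P0), in control pups and in pups labelled RXRg, RARb double mutant (dKO below), with 3 libraries for each of the 6 groups. Brains were frozen and kept in RNAlater before dissection, and RNA of whole tissue pieces was amplified with a low-input SMART-seq kit, so each library mixes every cell type of its piece. The labels give the genotype of the pups in these 6 libraries only as control. They name no strain and no sex, and do not say whether 1 or several pups stand behind a library. The p-values below therefore measure only a spread between libraries, which was estimated over all 18 libraries of the series. Medial and orbital libraries of the same replicate number share a title prefix and an index row, and are called a pair here (pair 1 with the prefix RAR, pairs 2 and 3 with the prefix RXR).

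The medial frontal cortex lines the wall between the hemispheres and holds the cingulate, prelimbic and infralimbic fields, whereas the orbital cortex forms the floor of the frontal pole, above the olfactory bulb and beside the olfactory cortex. At birth the neurons of both have been made and are extending axons and starting to form synapses, and differences between areas rest on transcription factors, adhesion molecules and guidance receptors expressed in graded patterns. Retinoic acid, the signal through which the 2 receptors named in the mutant act, is made from retinol by retinol and retinaldehyde dehydrogenases, binds RAR receptors that pair with RXR receptors on DNA, and is degraded by CYP26 enzymes; the meninges, the membranes around the brain, are a well-known source of it.

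The 2 libraries of pair 1 held 93093398 (medial) and 91836786 (orbital) reads counted in genes, and the 4 libraries of pairs 2 and 3 held 30814407 to 34832614. Values per library are given below as CPM, counts per 1000000 counted reads, on TMM-scaled library sizes, in the order of replicates 1, 2 and 3. Fold changes are log2 values of medial minus orbital with their standard errors (SE) from edgeR's quasi-likelihood test, fitted to all 18 libraries with the row as a block, and a gene is called at a Benjamini-Hochberg adjusted p under 0.05 over all genes tested.

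Medial and orbital cortex differed at 1690 genes, 9.02% of those tested. The calls were nearly even in number, with 840 genes higher in medial cortex (4.48% of all tested) and 850 higher in orbital cortex (4.54%), but not in size. Of the 524 called genes that differed at least 2-fold, 84 were higher in medial and 440 in orbital cortex, and the median log2 fold change was 0.66 for the first group and -1.01 for the second, against 0.01 over all genes. The sign was the same in the 3 pairs for 1675 of the 1690. All 3 medial libraries lay above all 3 orbital libraries, or the reverse, for 1045 of them. Over all tested genes, called or not, this held for 1038 with medial higher (5.54%) and 1353 with orbital higher (7.22%). The count depended on single libraries: it was 526 without the orbital library of replicate 1, 658 without the medial library of replicate 2, 607 without row 2 and 724 without row 3. The balance of the calls depended on them too, in both directions: it was 86 higher in medial against 638 in orbital cortex without row 3, 890 against 329 without row 1, and 1367 against 663 (2030 in all) without the medial library of replicate 1. Without the row as a block 7 genes were called, and with the 6 libraries alone 82, all among the 1690.

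The genes with the lowest p among those higher in medial cortex were led by Rasgrf2, a guanine nucleotide exchange factor for Ras and Rac that marks a class of upper layer neurons. Its medial libraries had 28.2, 24.6 and 24.3 CPM and its orbital libraries 7.38, 6.64 and 4.05 CPM. The groups did not overlap, and the log2 fold change was 2.15 (SE 0.24, adjusted p = 0.00398). Lipg, the endothelial lipase, had 13.9, 12.0 and 10.1 CPM in medial and 3.79, 2.03 and 1.83 CPM in orbital libraries. Every medial library of Lipg was again above every orbital one, with a log2 fold change of 2.29 (SE 0.27, adjusted p = 0.00398). Flrt2, a membrane protein that binds latrophilins and Unc5 receptors, had 238, 231 and 188 CPM in medial against 133, 114 and 70.9 CPM in orbital libraries (log2 1.09, SE 0.16, adjusted p = 0.00508). The groups of Flrt2 did not overlap, and replicate 3 was the lowest in both regions. Rasgrf2 and Lipg kept the call in all 16 alternative fits, and Flrt2 lost it only in the fit without the block.

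Further genes with low p on the medial side differed by smaller folds. Dzip3, an RNA-binding ubiquitin ligase, differed by 0.91, with 86.1, 99.2 and 92.7 CPM in medial and 51.0, 57.2 and 40.9 CPM in orbital libraries. Gucy1a1, the alpha subunit of the nitric oxide receptor guanylate cyclase, differed by 0.91, and Pde10a, a phosphodiesterase that degrades cyclic nucleotides, by 0.87. Cxxc4, an inhibitor of Wnt signalling, differed by 1.03, with 64.8, 74.4 and 89.3 CPM against 42.2, 35.4 and 33.8 CPM. Among membrane and adhesion proteins, Cdh8 (cadherin 8) differed by 0.89, Lrfn5 (a synaptic adhesion protein) by 0.83, Tmem74 by 1.03 and Nkain3 by 1.49. All adjusted p of these 8 genes lay between 0.00472 and 0.00485. Of the 8, Pde10a had overlapping groups, since its orbital library of replicate 2 (58.4 CPM) was above the medial one of replicate 3 (56.0 CPM), although medial was higher in each pair. Ankrd6 (0.87), Lancl3 (1.07) and Fam135b (1.26) completed the genes with the lowest p on this side.

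Apart from the genes with the lowest p, such as Lipg (2.29) and Rasgrf2 (2.15), the largest fold changes on the medial side came mostly with low counts. Tenm2 (1.62), described below, was read more often, 5830, 2381 and 2886 times in medial libraries. Dsc2, a desmosomal cadherin, was read 231, 15 and 169 times in medial and 12, 0 and 63 times in orbital libraries (log2 2.85, SE 0.83, adjusted p = 0.048). Its groups overlapped in CPM. Plch1, a phospholipase C, was read 1540, 548 and 424 times against 602, 191 and 68 times (log2 1.84, SE 0.32, adjusted p = 0.00869). Of this group Plch1 kept the call whichever library was left out, whereas Dsc2, the lipid flippase Atp8b1 (2.65), the sulfotransferase Hs6st3 (2.43), Sypl2 (2.07), Zfp459 (1.80) and Ankrd52 (1.71) lost it in at least 3 of the 9 leave-one-out fits.

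**Figure D1:**
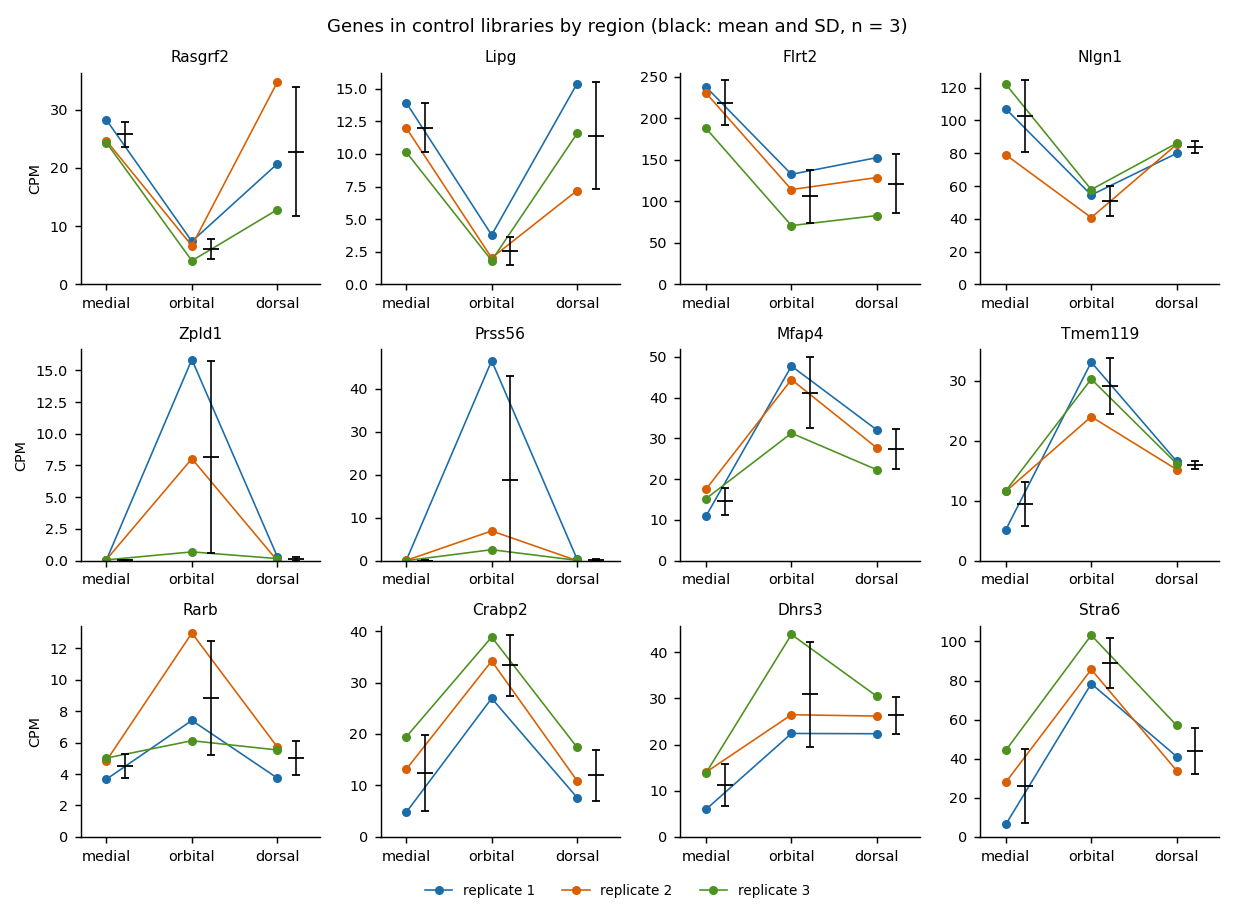
Level of 12 genes in the 9 control libraries, as CPM on linear axes from 0, by region; a coloured line joins the libraries of 1 replicate number, and black marks give the mean and SD of 3 libraries. Rasgrf2, Lipg, Flrt2 and Nlgn1 are higher in medial than orbital libraries in every pair, and the other 8 genes lower; Zpld1 and Prss56 have their highest value in the orbital library of replicate 1.

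Calls among genes of the synapse were on the medial side. Of 43 synaptic organizers (adhesion pairs that induce synapses), 13 were called higher in medial cortex (30.2%, against 4.48% of all tested genes). In orbital cortex 0 were called higher, against 4.54% of all tested genes, and the median log2 fold change of the list was 0.47. Nlgn1, the postsynaptic partner of neurexins, had 107, 79.0 and 122 CPM in medial and 54.5, 40.7 and 57.8 CPM in orbital libraries, without overlap (log2 1.0, SE 0.15, adjusted p = 0.0057). Tenm2, a teneurin that binds latrophilins, had 65.7, 70.0 and 90.0 CPM against 33.2, 25.9 and 18.4 CPM (log2 1.62, SE 0.36, adjusted p = 0.0173). The other teneurin shown here, Tenm3, differed by 1.46 with overlapping groups, the latrophilin Adgrl3 by 1.08, the neurexin partner Lrrtm2 by 0.83 and the receptor phosphatase Ptprd by 0.79. Of these, Flrt2 and Nlgn1 kept the call whichever library was left out, and the other 5 lost it in at least 2 of 9 such fits.

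Calls among receptor and release genes were also on the medial side. Of 40 glutamate receptor and postsynaptic scaffold genes, 8 were higher in medial and 0 in orbital cortex, with a median of 0.49. Dlg2, the scaffold PSD-93, had 150, 243 and 130 CPM in medial and 90.7, 136 and 41.8 CPM in orbital libraries, which overlap although medial was higher in each pair (log2 1.05, SE 0.18, adjusted p = 0.00842). Grik2, a kainate receptor subunit, differed by 0.81, Gria1, an AMPA receptor subunit, by 0.77, and Grin2b, an NMDA receptor subunit, by 0.85. Of 20 GABA and glycine receptor genes, 8 were higher in medial and 0 in orbital cortex, with a median of 0.52. Gabrb2, a beta subunit of the GABA-A receptor, had 93.7, 147 and 68.7 CPM against 56.0, 80.7 and 16.6 CPM, with overlapping groups but medial higher in each pair (log2 1.19, SE 0.22, adjusted p = 0.0109). Of 35 presynaptic release genes, 6 were higher in medial cortex and 0 in orbital cortex (median 0.37), with the vesicle protein Syt4 at 0.92, the active zone protein Rims1 at 0.82 and the priming factor Unc13a at 0.76. Of 53 potassium channel genes, 8 were higher in medial and 0 in orbital cortex (median 0.32), among them Kcnd2, a subunit of the A-type current, at 0.70.

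Guidance and adhesion families were mixed in how many genes were called. Of all tested genes 4.48% were called higher in medial and 4.54% in orbital cortex. The medial share was 24.3% for cadherins and protocadherins, 16.1% for the semaphorin list and 14.3% for the Eph and Slit genes. The orbital share of the Eph and Slit genes was 2.38%. In the group of 37 cadherins and protocadherins 9 were higher in medial cortex and 0 in orbital cortex (median 0.36). Pcdh17, a protocadherin of circuits between cortex and basal ganglia, had 98.0, 87.3 and 117 CPM in medial against 36.4, 56.1 and 30.5 CPM in orbital libraries (log2 1.35, SE 0.25, adjusted p = 0.0114), without overlap. Of 31 semaphorins, plexins and neuropilins, 5 were higher in medial cortex and 0 in orbital cortex (median 0.49), with Plxnc1, the receptor of Sema7a, at 0.99. Of 42 Eph, ephrin, netrin, Slit and Robo genes, 6 were higher in medial and 1 in orbital cortex (median 0.13). Those on the medial side included the Eph receptor Epha4 at 0.99, the Slit receptor Robo2 at 0.84 and the netrin receptor Dcc at 1.45, and the gene on the orbital side was Ntn5, a netrin, at -2.97. Ntn5 had 0.349, 1.24 and 1.40 CPM in medial and 7.17, 7.58 and 5.71 CPM in orbital libraries, with no overlap (SE 0.43, adjusted p = 0.00491).

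The pairs differed in how strongly the neuronal families separated. Within pair 1 the median difference in log2 CPM was 0.18 for synaptic organizers, 0.10 for glutamate receptors, 0.07 for release genes and -0.02 for cadherins. Pair 2 had 0.58, 0.52, 0.49 and 0.59 for the same lists, and pair 3 had 0.71, 0.77, 0.58 and 0.78. Without row 3 the medial calls fell to 2 of the synaptic organizers, 2 of the glutamate receptor genes, 2 of the GABA receptor genes, 1 of the cadherins, and 0 of the release genes, potassium channels, semaphorins and Eph and Slit genes. The semaphorin calls were 0 in 4 other leave-one-out fits as well. Over the 9 leave-one-out fits the medians of these 8 lists stayed above 0, from 0.07 for the Eph and Slit genes to 0.69 for the synaptic organizers. Of 37 ribosomal protein genes 0 were called by edgeR, DESeq2 or limma-voom and 0 had an unadjusted p under 0.05. Without the medial library of replicate 1, however, 11 were called higher in orbital cortex (median -0.48), and fewer without row 1. They had pair medians of 0.47, -0.40 and -0.42, so in pair 1 they were on the medial side and in pairs 2 and 3 on the orbital side; the part of RNA quality or amplification in these patterns was not tested.

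**Figure D2:**
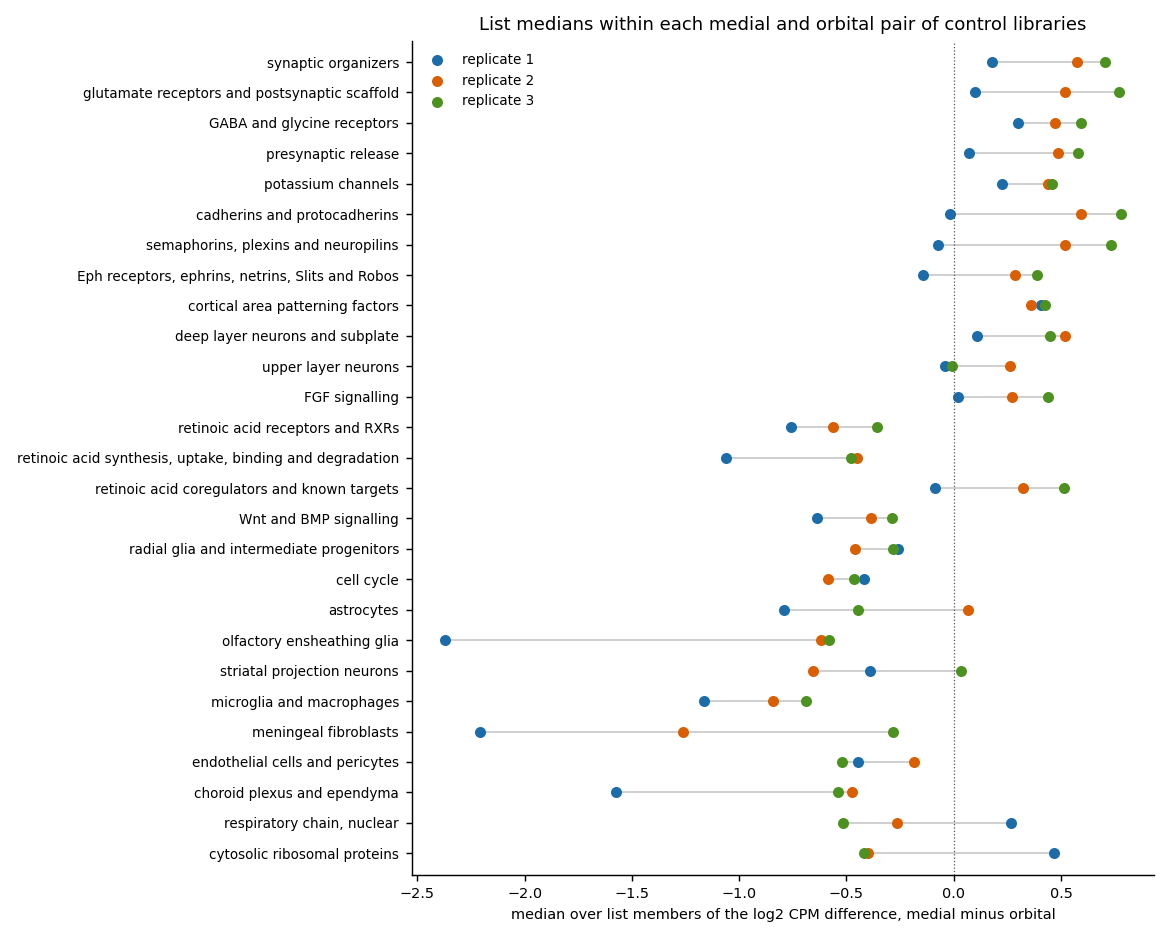
Median over the members of each gene list of the difference in log2 CPM between the medial and the orbital library of the same replicate number, 1 point per pair. Area patterning factors lie at 0.36 to 0.42 in the 3 pairs, whereas the meningeal list runs from -2.21 in pair 1 to -0.28 in pair 3.

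Of 30 cortical area patterning factors, 9 were called higher in medial cortex (30.0%, against 4.48% of all tested genes) and 0 in orbital cortex. The pair medians were 0.41, 0.36 and 0.42. Mef2c, a transcription factor of maturing excitatory neurons, had 973, 1113 and 999 CPM in medial and 591, 693 and 464 CPM in orbital libraries (log2 0.84, SE 0.14, adjusted p = 0.00842), with no overlap. Zbtb18, a zinc finger repressor needed for cortical neuron migration, had 1568, 1386 and 927 CPM against 600, 951 and 322 CPM (log2 1.13, SE 0.20, adjusted p = 0.00973). Its groups overlapped by a narrow margin, at medial replicate 3 and orbital replicate 2. Lhx2, a LIM homeodomain factor that selects cortical identity, had 45.0, 35.1 and 28.8 CPM against 17.1, 21.4 and 17.1 CPM (log2 0.97, SE 0.20, adjusted p = 0.0133). Meis2, a homeodomain factor that retinoic acid can induce, was also higher in medial cortex at 0.65, and Crym, a thyroid hormone binding protein, at 1.22. Nr2f1 (COUP-TFI), which is high in caudal and lateral cortex, had 7.74, 14.2 and 13.7 CPM in medial and 14.7, 15.2 and 22.2 CPM in orbital libraries and was not called (-0.57, adjusted p = 0.106). Mef2c and Zbtb18 kept the call whichever library was left out, whereas the list's count was 3 without the orbital library of replicate 1 and without row 2. Among 22 genes of FGF signalling, whose ligands from the anterior midline are the classical organizers of frontal areas, 0 were called by edgeR and limma-voom and 2 by DESeq2, with 4 at an unadjusted p under 0.05 (median 0.14).

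Layer markers were called mostly on the medial side. Of 35 genes of deep layer neurons and the subplate, 9 were higher in medial (25.7%, against 4.48% of all tested genes) and 1 in orbital cortex (2.86%, against 4.54%), with a median of 0.27. Fezf2, the selector of subcerebral projection neurons, differed by 0.73, Tbr1, a corticothalamic factor, by 0.57, and the layer 6 genes Rprm and Ntsr1 by 0.65 and 0.69, each with overlapping groups. The number of medial calls in this list was 1 without the medial library of replicate 2 and without row 3. Of 26 upper layer genes, 4 were higher in medial (15.4%) and 1 in orbital cortex (3.85%), with a median of 0.09. Of these 26, 14 had positive and 12 negative fold changes, and the pair medians were -0.04, 0.26 and -0.01. The orbital share was below the background in both layer lists. The layer lists share called genes with the patterning list: Fezf2, Crym and Tbr1 of the deep layer list and Lhx2 of the upper layer list. The upper layer gene on the orbital side was Mdga1, a membrane protein that blocks neuroligins, with 10.7, 22.8 and 10.5 CPM in medial against 38.1, 39.4 and 27.8 CPM in orbital libraries and no overlap (log2 -1.34, SE 0.20, adjusted p = 0.0057). Mdga1 was higher still in dorsal cortex, at 47.8, 72.4 and 47.7 CPM.

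Genes with large orbital folds included Prss56 and Mybpc1, members of the list for olfactory ensheathing glia, the cells that wrap olfactory axons on the surface of the olfactory bulb. Prss56, a secreted serine protease and a defining marker of these cells in the list used here, was read 2, 2 and 0 times in the medial libraries and 4260, 228 and 85 times in the orbital ones. Its orbital levels were 46.5, 6.91 and 2.55 CPM, so all 3 were above all medial libraries but spanned a wide range, with replicate 1 highest. The fitted log2 fold change of -9.64 (adjusted p = 0.00398) rests on 4 medial reads in all and depends on how the fit treats low counts. Mybpc1 was read 0, 7 and 12 times in medial and 2267, 320 and 43 times in orbital libraries. Zpld1, a zona pellucida domain protein that is not in that list, was read 5, 3 and 2 times against 1451, 265 and 23 times. For Prss56, Mybpc1 and Zpld1 alike orbital replicate 1 was highest and replicate 3 lowest. Prss56 and Zpld1 kept the call in all 16 alternative fits, and Mybpc1 lost it in 8. Other genes with large orbital folds were also outside that list. They were Slc47a1, a drug and cation exporter (-3.14), the lectin Chodl (-3.06), Adamtsl5 (-2.95), the small GTPase Rab20 (-2.66) and the chloride channel protein Clic6 (-2.63). Each of them lost the call in at least 2 of the 9 leave-one-out fits.

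Of the 17 ensheathing glia genes tested, 8 were called higher in orbital cortex (47.1%, against 4.54% of all tested genes). In medial cortex 1 was called higher (Cdh2, 5.88%, against 4.48%), and the list median was -1.30. The list's summed level was 1412, 2038 and 2204 CPM in medial and 2520, 3170 and 2562 CPM in orbital libraries, so the groups did not overlap. Matn4, a matrix protein, differed by -1.75, S100b, a glial calcium-binding protein, by -1.63, Gja1, the gap junction protein connexin 43, by -1.10, and Fabp7, a lipid-binding protein of radial and ensheathing glia, by -0.51. Frzb, a secreted Wnt inhibitor (-1.55, adjusted p = 0.0528), and Sox10, a neural crest and oligodendrocyte factor (-0.82, adjusted p = 0.158), were not called. The pair medians of the list were -2.37, -0.62 and -0.58, and the number of orbital calls was 2 without the orbital library of replicate 1 or without row 1. In bulk tissue a higher level from more cells of a type and from more RNA per cell cannot be told apart, and the same holds for every cell type below. Markers of olfactory bulb neurons gave 1 call in each direction among 24 genes (4.17%, near the 4.48% and 4.54% of all tested genes). Their summed levels were 434, 462 and 445 CPM in medial and 304, 555 and 304 CPM in orbital libraries. The bulb gene Cdhr1, highest in orbital replicate 2 at 25.4 CPM, was not called (-1.58, adjusted p = 0.153). The part of olfactory bulb tissue in the orbital pieces was not tested.

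**Figure D3:**
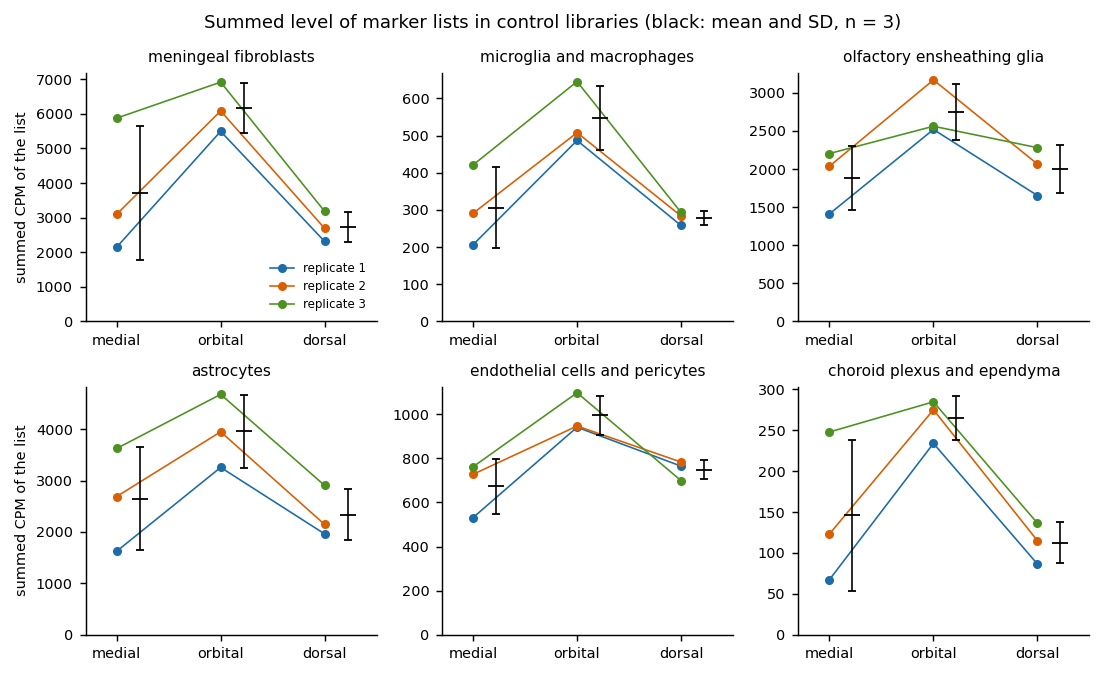
Summed CPM of 6 marker lists in the 9 control libraries, by region, on linear axes from 0; coloured lines join the libraries of 1 replicate number and black marks give the mean and SD of 3 libraries. Orbital libraries are highest within every replicate number in each panel, while the medial library of replicate 3 is at 5875 CPM for the meningeal list, above orbital replicate 1 at 5493 CPM.

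The calls among genes of the meninges were all on the orbital side. All 26 meningeal fibroblast genes had negative fold changes, 15 were called (57.7%, against 4.54% of all tested genes higher in orbital cortex), and the median was -1.16. The summed level of the list was 2148, 3099 and 5875 CPM in medial, 5493, 6082 and 6915 CPM in orbital and 2311, 2689 and 3183 CPM in dorsal libraries. Col1a1, the main fibrillar collagen of fibroblasts, had 69.5, 242 and 307 CPM in medial and 491, 504 and 478 CPM in orbital libraries, without overlap (log2 -1.42, SE 0.34, adjusted p = 0.0225). Foxc1, a transcription factor that the meninges need to form, differed by -1.23, the proteoglycan Dcn by -1.26, Islr by -1.29 and the organic anion transporter Slc22a6 by -1.31. Lum, another fibroblast proteoglycan, was not called (-1.07, adjusted p = 0.0583). The list medians of pairs 1, 2 and 3 were -2.21, -1.26 and -0.28, and the number called was 1 without the orbital library of replicate 1 or without row 2, and 22 without the medial library of replicate 3 or without row 3. Outside this list Mfap4, a microfibril-associated protein, had 10.9, 17.6 and 15.2 CPM in medial against 47.8, 44.5 and 31.3 CPM in orbital libraries and kept the call in all 16 alternative fits (log2 -1.49, SE 0.21, adjusted p = 0.00485). Htra3, a secreted serine protease, had 10.2, 30.5 and 23.8 CPM against 60.7, 71.2 and 74.7 CPM (log2 -1.79, SE 0.25, adjusted p = 0.00485).

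Microglia and macrophage genes followed the same direction more evenly over the pairs. Of 22 genes 12 were higher in orbital (54.55%, against 4.54% of all tested genes) and 0 in medial cortex. Of the 22, 21 had negative fold changes, and the pair medians were -1.16, -0.84 and -0.69. Tmem119, a microglial membrane protein, had 5.16, 11.6 and 11.7 CPM in medial and 33.1, 24 and 30.3 CPM in orbital libraries (log2 -1.67, SE 0.26, adjusted p = 0.00608). The lysosomal protein Cd68 had 5.62, 7.70 and 13.2 CPM against 13.6, 21.1 and 25.6 CPM (log2 -1.21, SE 0.19, adjusted p = 0.00579). Neither gene overlapped between the regions. The complement gene C1qc differed by -1.06 and the growth factor receptor Csf1r by -0.92, while P2ry12, the purine receptor of resting microglia, was not called (-0.69, adjusted p = 0.0877). The list's sum was 206, 291 and 421 CPM in medial and 487, 508 and 646 CPM in orbital libraries. The number called was 3 without the orbital library of replicate 1.

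Other non-neuronal lists gave fewer calls. The orbital shares were 18.2% for astrocytes, 15.4% for endothelial cells and pericytes and 35.7% for choroid plexus, against 4.54% of all tested genes. Of 22 astrocyte genes 4 were higher in orbital cortex and 0 in medial (median -0.45), but the pair medians were -0.79, 0.07 and -0.45. The median of pair 2 was thus not on the orbital side, although its summed level was 2690 CPM in medial and 3949 CPM in orbital cortex. The 4 calls fell to 1 without medial replicate 1, orbital replicate 1, orbital replicate 2 or row 1. Apoe, the main lipid carrier of the brain, had 194, 375 and 754 CPM in medial and 698, 707 and 1291 CPM in orbital libraries, overlapping across replicates but higher in orbital cortex in each pair (log2 -1.17, SE 0.16, adjusted p = 0.00485). Ndrg2, an astrocyte gene not in that list, had 132, 202 and 189 CPM against 261, 346 and 372 CPM (log2 -0.91, SE 0.12, adjusted p = 0.00485), and the connexin Gjb6 differed by -1.20. Of 26 endothelial and pericyte genes 4 were higher in orbital and 0 in medial cortex (median -0.36), among them the plasma protein Vtn, made by pericytes, at -1.18 and Itm2a at -0.95; without row 2 these calls were 0. The endothelial markers Cldn5 (-0.34, adjusted p = 0.249) and Pecam1 (-0.38, adjusted p = 0.314) were not called. Of 14 choroid plexus genes 5 were higher in orbital cortex and 0 in medial, with Enpp2 (autotaxin) at -0.98 and the water channel Aqp1 at -1.58, but these calls were 0 in 5 of the 9 leave-one-out fits. The peripheral myelin protein Pmp22 had 18.2, 29.8 and 50.1 CPM in medial against 53.5, 64.0 and 92.5 CPM in orbital libraries and lost the call only without the block (log2 -1.18, SE 0.14, adjusted p = 0.0044). Cytoskeletal and signalling genes among the lowest p on the orbital side were Csrp1 at -1.0, Trip6 at -1.11, Arpc1b at -1.11 and the cyclin Ccnd3 at -0.94, with Glmp (-0.78) and Necap2 (-0.89) beside them.

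Calls among the genes that handle retinoic acid were on the orbital side. Of 21 tested genes of synthesis, uptake, binding and degradation, 8 were higher in orbital (38.1%, against 4.54% of all tested genes) and 0 in medial cortex. The other 13 were not called, of which 4 had positive fold changes, and the list median was -0.79. Stra6, the receptor that takes up retinol from its plasma carrier, had 6.39, 28 and 44.3 CPM in medial and 78.4, 85.7 and 103 CPM in orbital libraries (log2 -2.0, SE 0.36, adjusted p = 0.0101). All orbital libraries of Stra6 were above all medial ones. Dhrs3, which turns retinaldehyde back into retinol and is itself induced by retinoic acid, had 5.97, 14.0 and 13.8 CPM in medial against 22.4, 26.5 and 43.9 CPM in orbital libraries (log2 -1.49, SE 0.21, adjusted p = 0.00485). Of its dorsal libraries, at 22.35, 26.17 and 30.45 CPM, the first lay just below the lowest orbital one (22.41 CPM) and the others within the orbital range. Crabp2, which carries retinoic acid to the receptors, had 4.78, 13.1 and 19.4 CPM against 26.9, 34.2 and 38.8 CPM (log2 -1.61, SE 0.23, adjusted p = 0.00485). These 3 genes and the reductase Dhrs4 (-0.89) kept the call whichever library was left out.

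Enzymes that make retinoic acid differed less firmly. Aldh1a2, the retinaldehyde dehydrogenase of the meninges, had 22.6, 38.6 and 99.6 CPM in medial and 83.7, 102 and 124 CPM in orbital libraries, so medial replicate 3 lay within the orbital range (log2 -1.16, SE 0.25, adjusted p = 0.017). Rdh10, which oxidizes retinol, differed by -0.81, and Aldh1a1 by -1.56 at levels of 0.473 to 9.64 CPM. Each of these 3 lost the call in 4 or more of the 9 leave-one-out fits. Aldh1a3, another retinaldehyde dehydrogenase, was read 274, 9 and 66 times in medial and 14, 0 and 44 times in orbital libraries and was not called (2.46, SE 1.19, adjusted p = 0.226). It was called higher in medial cortex with no filter on low counts (adjusted p = 0.00638) and in no other alternative, where the adjusted p was up to 0.804. Cyp26b1, the main retinoic acid degrading enzyme of the forebrain, had 21.9, 42.5 and 21.3 CPM in medial and 45.0, 24.3 and 23.9 CPM in orbital libraries, with no order between the groups and a log2 fold change of -0.07 (SE 0.67, adjusted p = 0.968). Crabp2 and Aldh1a2 belong also to the meningeal list used above, whose summed level overlapped between the regions at medial replicate 3. The part of the meninges in the retinoid differences was not tested.

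Of the 6 receptors, Rarg and Rarb were called higher in orbital cortex (33.3%, against 4.54% of all tested genes) and 0 in medial cortex. Rarb, which retinoic acid is known to induce, had 3.67, 4.85 and 5.02 CPM in medial and 7.42, 13.0 and 6.13 CPM in orbital libraries, without overlap (log2 -0.93, SE 0.25, adjusted p = 0.0333). Rarg had 2.30, 5.17 and 5.61 CPM against 8.5, 7.55 and 9.22 CPM (log2 -1.06, SE 0.28, adjusted p = 0.0327). Both calls were lost in 7 of the 9 leave-one-out fits, with adjusted p of up to 0.196 for Rarg and 0.19 for Rarb. Rarb shares exon positions with Top2b on the other strand and the counting took no account of strand, so reads there cannot be told apart. Rxrg had 2.15, 6.26 and 2.87 CPM in medial and 2.36, 19.9 and 3.96 CPM in orbital libraries, with replicate 2 highest in both regions, and was not called (-0.65, adjusted p = 0.391). Rara (-0.27, adjusted p = 0.385), Rxra (-0.50, adjusted p = 0.18) and Rxrb (-0.07, adjusted p = 0.783) were not called either. Of 15 coregulators and known targets, 2 were higher in medial cortex (Meis2, and the corepressor Ncor1 at 0.40) and 1 in orbital cortex (the transglutaminase Tgm2 at -1.21), with a median of 0.39. The medial and orbital shares of this list were 13.3% and 6.67%, against 4.48% and 4.54% of all tested genes. Ncor1 lost the call in all 9 leave-one-out fits and Meis2 in 5, and the medial calls of this list were 0 in 5 of them. Cbln2, a synaptic organizer of the frontal cortex that retinoic acid can induce, had 168, 278 and 200 CPM in medial and 397, 210 and 317 CPM in orbital libraries and was not called (-0.44, adjusted p = 0.593).

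Promoters were searched for the direct repeat with 5 bases between its copies to which RAR and RXR pairs bind, because the receptor genes and several retinoid genes lay on the same side. The copies searched were the consensus AGGTCA, the copies GGTTCA and then AGTTCA that form the Rarb repeat, and one further variant, GGGTCA, in any combination, on both strands, in the 300 bases from 250 before to 50 after each gene's start (RefSeq, GRCm38.p6). A match was found in 32 of 32851 promoters (0.0974%). Among tested genes with a promoter in that table, 10 of 12687 had a match. For the called genes the numbers were 0 of 618 higher in medial and 2 of 651 higher in orbital cortex, Rarb and Blvrb. The match in Rarb was fixed in advance, since the copies of its own repeat were among those searched. These numbers therefore do not compare the 2 sides. Blvrb, a biliverdin and flavin reductase, had 6.44, 5.62 and 7.58 CPM in medial and 11.6, 9.82 and 13.6 CPM in orbital libraries (log2 -0.83, SE 0.22, adjusted p = 0.0357), and lost the call in each of the 9 leave-one-out fits. Cyp26a1, a retinoic acid degrading enzyme whose promoter is a textbook case of this repeat, was not called (-0.48, adjusted p = 0.757, 1.36 to 3.27 CPM over the 6 libraries). The 3 promoters are shown 5′ to 3′ along the gene's strand with the repeat in capitals, to show its letters and place; it starts 53 bases before the start of Rarb, 19 before that of Blvrb and 32 before that of Cyp26a1. In Blvrb and Cyp26a1 it reads on the other strand. A match is a description of letters and not evidence of binding, and the listed promoters of Dhrs3 and Stra6 hold none.
Rarb promoter, chr14:16575427-16575726, minus strand: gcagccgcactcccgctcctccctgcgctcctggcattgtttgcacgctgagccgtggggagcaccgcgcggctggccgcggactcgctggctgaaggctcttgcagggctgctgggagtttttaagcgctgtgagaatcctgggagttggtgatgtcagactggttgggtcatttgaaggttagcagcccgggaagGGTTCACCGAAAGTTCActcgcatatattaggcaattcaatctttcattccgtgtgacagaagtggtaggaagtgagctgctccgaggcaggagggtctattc
Blvrb promoter, chr7:27452168-27452467, plus strand: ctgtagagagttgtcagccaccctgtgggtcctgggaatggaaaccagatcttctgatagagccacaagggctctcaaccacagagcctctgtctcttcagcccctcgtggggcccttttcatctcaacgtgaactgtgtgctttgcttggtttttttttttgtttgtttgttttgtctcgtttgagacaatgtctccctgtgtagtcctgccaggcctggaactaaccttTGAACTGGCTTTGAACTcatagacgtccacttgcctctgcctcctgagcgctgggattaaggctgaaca
Cyp26a1 promoter, chr19:37697558-37697857, plus strand: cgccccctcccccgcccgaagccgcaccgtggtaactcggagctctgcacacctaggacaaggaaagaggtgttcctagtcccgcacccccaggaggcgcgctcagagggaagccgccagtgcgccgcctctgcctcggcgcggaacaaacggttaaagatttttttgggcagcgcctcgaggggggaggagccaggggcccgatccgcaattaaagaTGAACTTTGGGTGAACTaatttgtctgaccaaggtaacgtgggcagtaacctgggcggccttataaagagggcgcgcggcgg

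Some Wnt and BMP genes and genes of dividing cells were also called higher in orbital cortex, although most members of these lists were not called. Of all tested genes 4.54% were called higher in orbital cortex. The share was 25.6% for the Wnt and BMP list, 19.2% for the radial glia and progenitor list and 16.7% for the cell cycle list. Of 43 Wnt and BMP signalling genes, 11 were higher in orbital and 1 in medial cortex, 31 were not called, and the median was -0.36. The frizzled receptor Fzd2 had 6.97, 17.3 and 15.3 CPM in medial and 22.4, 37.1 and 31.2 CPM in orbital libraries, without overlap (log2 -1.26, SE 0.18, adjusted p = 0.00485). The BMP ligands Bmp4, Bmp6 and Bmp7, which the meninges and the dorsal midline are known to secrete, differed by -1.43, -1.38 and -1.25, and the repressor Tcf7l1 by -1.34. The medial gene was Fzd3, a frizzled of axon guidance, at 0.78. Of 26 radial glia and intermediate progenitor genes 5 were higher in orbital cortex and 0 in medial (median -0.32), among them the filament protein Vim at -0.58, the Notch target Hes1 at -0.85 and Gas1 at -0.79. These calls fell to 1 without orbital replicate 1, orbital replicate 2 or row 2; over the 9 leave-one-out fits Hes1 lost the call in 9, Gas1 in 8 and Vim in 5. Of 30 cell cycle genes 5 were higher in orbital cortex, 0 in medial and 25 were not called; 28 of 30 had negative fold changes, and the pair medians were -0.42, -0.58 and -0.47. Ccnb2, a mitotic cyclin, had 7.84, 7.23 and 3.21 CPM in medial against 16.7, 12.6 and 8.23 CPM in orbital libraries (log2 -1.07, SE 0.18, adjusted p = 0.00842), Plk1 differed by -0.86, Cdc20 by -0.68 and Cdk1 by -0.58. Ccnb2 and Fzd2 kept the call whichever library was left out. The number of Wnt and BMP calls on the orbital side fell to 2 without the orbital library of replicate 1 and without row 1, and that of cell cycle calls to 1 without the orbital library of replicate 3.

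**Figure D4:**
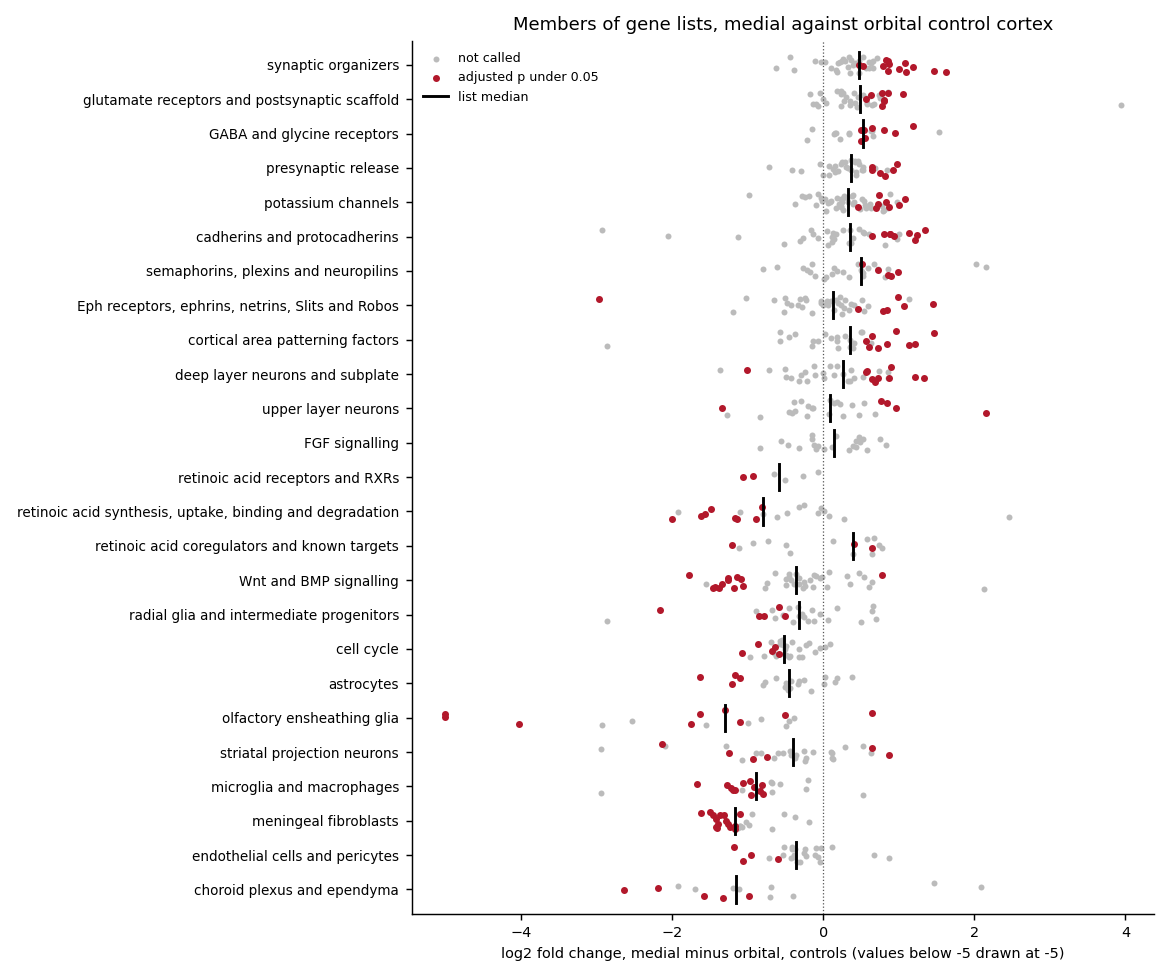
Log2 fold change, medial minus orbital in controls, of each tested member of 25 gene lists; red points are called, grey points are not, and a black bar is the list's median. Synapse, adhesion and patterning lists have their medians between 0.13 and 0.52, and meningeal, microglial, choroid plexus and ensheathing glia lists between -1.30 and -0.89.

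Neighbouring structures that a dissection could include were checked through their markers. Of all tested genes 4.48% were called higher in medial and 4.54% in orbital cortex, and single calls in lists of this size lie near those shares. Of 30 striatal projection neuron genes, 4 were higher in orbital (13.3%) and 2 in medial cortex (6.67%), with a median of -0.40. Drd2, the dopamine receptor of the indirect pathway, had 0.732, 1.15 and 1.47 CPM in medial and 7.13, 3.82 and 3.45 CPM in orbital libraries, without overlap (log2 -2.13, SE 0.45, adjusted p = 0.0149), and Ebf1 and Penk differed by -1.25 and -0.75. Drd1, the receptor of the direct pathway, was not called (0.64, adjusted p = 0.169). Over the list the summed level was 896, 1124 and 990 CPM in medial and 868, 1004 and 835 CPM in orbital libraries. Among 24 genes of the hippocampus, cingulate and retrosplenial cortex, 1 was higher in medial cortex (4.17%) and 3 in orbital cortex (12.5%; Igfbp6, Ccn3 and Lef1). The list median was 0.15, and the medial call was lost in 5 of the 9 leave-one-out fits. Septal and ventral forebrain genes gave 1 call on the orbital side among 21, but 18 of the 21 had negative fold changes (median -0.46). The pair medians of the septal list were -0.51, -0.96 and -0.40. Its summed level was 247.7, 235.4 and 280.1 CPM in medial and 306.9, 286.5 and 308.4 CPM in orbital libraries, without overlap. The part of septal tissue in the orbital pieces was not tested. Claustrum and insular genes gave 1 call on the medial side among 13, and piriform and anterior olfactory genes 3 on the medial and 1 on the orbital side among 15. Interneuron lists gave 2 medial (6.90%) and 1 orbital call (3.45%) among 29 genes of the medial ganglionic eminence, with Lhx6 at -0.10 (adjusted p = 0.77). For the caudal eminence 3 medial calls were made among 27 genes (11.1%). The striatal calls on the orbital side were 0 without the orbital library of replicate 1 and without row 1. The red cell genes Hba-a1 (-1.02) and Alas2 (-1.08) were higher in orbital cortex, with Hba-a1 at 522, 396 and 402 CPM in medial and 894, 837 and 950 CPM in orbital libraries.

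The same regions were then compared in the dKO libraries, which come from other rows, to set the control difference beside them. Both targeted genes check these labels in part: over the 6 medial and orbital dKO libraries Rarb was at 1.19 to 4.47 CPM and Rxrg at 0.38 to 2.67 CPM, against 3.67 to 13.0 and 2.15 to 19.9 CPM in the 6 control libraries, so the ranges overlapped. The labels do not say which exons the mutations affect. Between medial and orbital dKO libraries 3 genes were called (0.016% of 18730), Arhgef28, Scg2 and Tspan18, and 1366 had an unadjusted p under 0.05, against 4543 in controls. Of the 840 genes higher in medial control cortex, 317 (37.7%) had the same sign in dKO, and of the 850 higher in orbital control cortex, 448 (52.7%), beside 44.1% of all tested genes. Their median log2 fold changes in dKO were -0.06 and -0.02. The difference between the control and the dKO fold change was itself called for 275 genes (1.47%), of which 237 were also called in controls and 264 had opposite signs in controls and dKO. For 147 of the 275 the control value was the more medial one and for 128 the more orbital one. Rasgrf2 went from 2.15 in controls to 0.06 in dKO, Flrt2 from 1.09 to -0.41, Ndrg2 from -0.91 to 0.34 and Fabp7 from -0.51 to 0.70. Other genes had like values in both: Rarb was at -0.93 in controls and -0.92 in dKO, Lhx2 at 0.97 and 0.93, Crym at 1.22 and 1.15, Drd2 at -2.13 and -2.30, and Mybpc1 at -5.95 and -6.37. None of those 5 was called for the difference.

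The count of 275 was 1914 without the medial control library of replicate 1, 40 without that of replicate 2, 1472 without control row 1, 11 without control row 2 and 3 without control row 3, and 0 without the block. In the dKO libraries the synaptic organizers had a median of -0.20, the cell cycle genes 0.26 and the meningeal genes -0.18, against 0.47, -0.52 and -1.16 in controls.

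**Figure D5:**
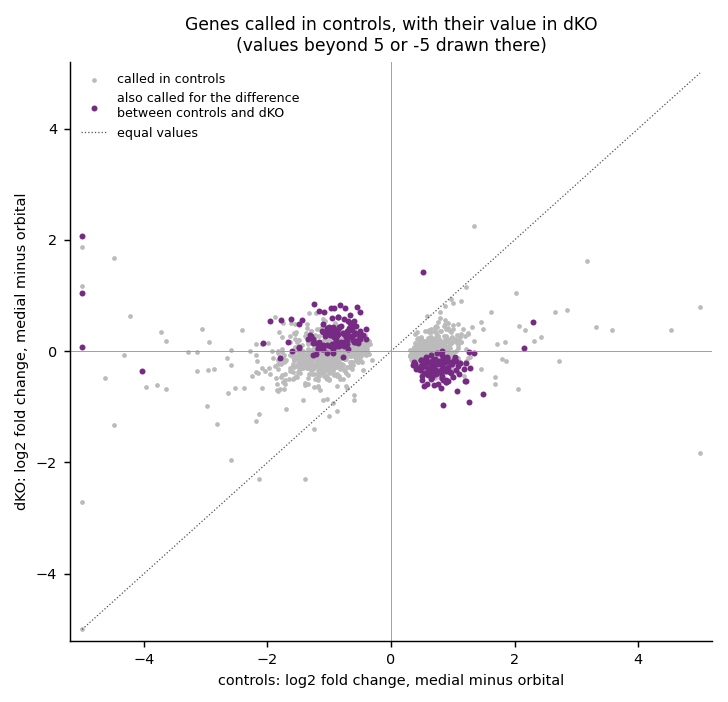
Log2 fold change of medial minus orbital in controls (horizontal) and in dKO (vertical) for the 1690 genes called in controls, values beyond 5 or -5 drawn at the edge; purple points are the 237 also called for the difference between genotypes, and the dotted line marks equal values. Most points lie near 0 on the vertical axis, whichever side they take in controls.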

How the data were processed

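The deposited table holds counts of reads per gene, from featureCounts 1.6.2 with no strand option and the Ensembl release 94 annotation, per the file headers; the submitters' processing notes name STAR 2.6 and the GRCm38 (mm10) build. Of its 24 columns of per-sample values, the 18 that match labelled samples were used and 6 were not read. The raw counts were tested with edgeR 4.0.16 in R 4.3.3 (TMM; genes kept by filterByExpr at count 10 and total 15; glmQLFit and glmQLFTest) over all 18 libraries, with the row of libraries that share genotype, title prefix and index as a block and region within genotype. The contrasts were medial minus orbital in controls, the same in dKO, and their difference. Benjamini-Hochberg adjustment ran over the 18730 genes tested. Differences within a pair are in log2 CPM with a prior count of 2. The script for the test was checked on simulated data. For the control comparison it recovered 33% of the simulated 2-fold differences and 47% of the 4-fold ones. For the difference between genotypes the shares were 15% and 43%. Genes simulated without a difference were called 9 times in the first and 6 times in the second. Many simulated differences were thus missed, so a gene that was not called may still differ.

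Replicate numbers were taken from the prefix and index row in the labels. Deviations from the group means correlated at 0.27 to 0.495 in all 9 comparisons of control libraries of the same row, so the rows were taken to pair the samples. Correlations between different rows were negative. Those are no separate evidence, because deviations from a group mean cancel out within the group, so positive values within rows force negative ones on average. What the libraries of a row share beyond the labels was not tested.

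The named genes were, in each direction, the 15 called genes with the lowest p and the 8 further ones with the largest fold change, provided that the mean over the 6 libraries reached 1 CPM, that the 3 pairs had 1 sign and that the symbol was no predicted gene, then up to 8 called members by p of each of 43 gene lists; genes named as not called, and Blvrb, were chosen with their values known. Some genes that meet the rule are not reported here. Genes and lists were chosen with earlier results of these data known. Exons of Mfap4, Ccnd3, Arpc1b, Csf1r, Alas2, Ncor1, Tgm2 and some others named here overlap those of other annotated genes. Alternatives were limma-voom (limma 3.58.1), DESeq2 1.42.0, its size factors within edgeR, no filter on low counts, no block, the 9 or 6 control libraries alone, an adjusted p of 0.01, and leaving out each library or row. Counts set the precision: the 6 libraries held 30814407 to 93093398 reads in genes. Tables were made with Python 3.11.15 and pandas 2.3.3, and figures with matplotlib 3.10.9.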

Additional observations from a re-analysis of the deposited data

Results flagged for a closer look

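The medial minus orbital difference itself differed between controls and dKO, by edgeR's test of the interaction of region and genotype, at 275 genes, and among the genes with values above at 39. The adjusted p of that test was 0.0184 for Ndrg2, Flrt2, Csrp1 and Fabp7, 0.023 for Pde10a, Pmp22, Necap2, Rasgrf2 and Dzip3, 0.0269 for Apoe, 0.0276 for Prss56, 0.0278 for Mfap4, Gucy1a1, Lrfn5, Dhrs4, Trip6, Zpld1, Ccnb2, Grik2, Fzd2, Cxxc4 and Cdh8, 0.029 for Dhrs3. It was 0.0302 for Ccnd3, 0.0303 for Arpc1b and Crabp2, 0.0308 for Tmem119, 0.0324 for Dlg2, 0.0328 for Lipg, Vim, Mef2c, Cdk1 and Gabrb2. It was 0.0356 for Fam135b, 0.0358 for Htra3, 0.0434 for Rims1, 0.0443 for Cd68, 0.0478 for Plk1, 0.0494 for Glmp. The control and dKO libraries of this test come from different rows. The count moved both ways when a control row was left out: it was 1472 without row 1, 11 without row 2 and 3 without row 3, with 268, 8 and 1 of the 275 among them. No explanation was tested.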

How the results depend on the processing

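The 1690 genes called in controls kept their direction in every alternative in which they were tested, but the number called moved. It was 2897 with DESeq2, 243 with the 9 control libraries only, 82 with the 6 compared libraries only and 143 at an adjusted p of 0.01, and it ran from 526 to 2030 when a library or row was left out. Without the row as a block (the pairing of libraries), edgeR called 7 genes in controls, 0 in dKO (526 at an unadjusted p under 0.05) and 0 for the difference between them (1563). The 3 calls in dKO became 197 with no filter on low counts and 145 with DESeq2, and 2 to 25 with a control library or row left out. The 275 calls for the difference became 1600 with no filter, 1692 with DESeq2, 470 with limma-voom and 0 at an adjusted p of 0.01, and ran from 3 to 1914 with a control library or row left out. The cause was not tested. Among genes that were not called, Rxrb (-0.07) ran from -0.181 to 0.059 and Cyp26b1 (-0.07) from -0.754 to 0.415 with a library or row left out; Rxrb changed sign to 0.034, 0.038 and 0.059 without medial replicate 3, orbital replicate 3 and row 3, and Cyp26b1 to 0.324, 0.156, 0.262 and 0.415 without medial replicate 1, medial replicate 3, orbital replicate 1 and row 1. Of the 119 called genes with values in the text, all kept their sign, 45 kept the call in each of the 9 leave-one-out fits, 33 with the 6 libraries alone and 5 in all 16 alternative fits.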

Other observations

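The genes called in controls differed in genomic length. The median span from start to end of the annotated gene was 73.2 kb for the 840 genes higher in medial cortex, 17.8 kb for the 850 higher in orbital cortex and 19.1 kb for all tested genes, and 39.5%, 9.06% and 12.9% of the genes spanned at least 100 kb. The median summed exon length was 7.51, 3.29 and 3.76 kb. Long genes are common among neuronal adhesion and synaptic genes, and the parts of cell makeup and of amplification in this difference were not tested.

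The dorsal control libraries, which the comparison did not use except in the estimate of spread, lay nearer to medial than to orbital cortex. The mean log2 CPM of the dorsal libraries was closer to the medial than to the orbital mean for 89.2% of the genes higher in medial cortex and 89.5% of those higher in orbital cortex, against 67.3% of all tested genes. Gene by gene there were exceptions: Flrt2 had 153, 129 and 83 CPM in dorsal libraries, nearer to its orbital values, and Mdga1 was highest in dorsal cortex. Of 18 immediate early genes and 23 cholesterol synthesis genes, edgeR called 0 in each list, with 3 and 4 at an unadjusted p under 0.05; limma-voom called 0 and 0, and DESeq2 3 and 1.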
